A study of Mus musculus with 12 samples.

Results

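The data compared here are DNA methylation levels of leukaemia cells that carry the myeloid surface marker CD11b (CD11b-positive) with those of the bulk cells that lack it (CD11b-negative), both sorted from mice treated with CpG-STAT3dODN. The comparison holds all 4 libraries of each kind, 8 of the 12 libraries in the series, and the other 4 come from PBS-treated mice. All 12 libraries were made from CMM cells, which are mouse leukaemia cells marked with GFP and a model of human acute myeloid leukaemia with inv(16). They were engrafted intravenously in C57BL/6 hosts. Treatment began at about 1% GFP-positive cells in blood and consisted of 3 intravenous injections, every other day, of PBS or of CpG-STAT3dODN, in which a STAT3 decoy oligonucleotide is linked to a CpG sequence. GFP-positive cells were sorted by flow cytometry from spleens collected 1 day after treatment ended. Cells of treated mice were also sorted by CD11b, whereas cells of PBS mice were not, so the PBS libraries are unsorted for the marker. CMM is 1 line. Its sex and the hosts' age and sex are not given in the sources used, and no label states whether a group's libraries are from different mice. The p-values therefore measure the spread between these libraries, which may be technical. Reduced representation bisulfite sequencing reads restriction fragments rich in CpG, and counts methylated and unmethylated reads at each CpG.

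CpG methylation in mammals is set by the DNA methyltransferases Dnmt3a and Dnmt3b, copied at replication by Dnmt1 with its partner Uhrf1, and oxidised by the TET enzymes. Most CpGs carry it, while CpG-dense gene starts are mostly free of it. Leukaemia cells commonly carry methylation at some CpG-dense starts and less of it elsewhere. CD11b, the product of Itgam, pairs with the product of Itgb2 to form an integrin of monocytes, macrophages and granulocytes, and its appearance is used as a sign of myeloid differentiation. CpG oligonucleotides are taken up by cells with the receptor TLR9, and STAT3 is a transcription factor that restrains differentiation and immune activation in myeloid leukaemia. The series states its question as whether DNA methyltransferase levels differ in the CD11b-positive subset.

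Calls of both strands were summed, and a CpG was used when each of the 8 libraries had at least 10 calls on it. This left 1029490 autosomal CpGs of 12299036 listed, with 81 calls in the median over CpGs and libraries. They filled 84569 tiles of 1000 bp with at least 3 such CpGs, and windows of 1000 bp on each side of the start of 10736 protein-coding genes. For 2762 more genes whose strand was not known the window lay at the gene end with more CpGs. A level is the percentage of calls that are methylated, and a difference is always CD11b-positive minus CD11b-negative in percentage points. A tile or window is said to have passed when its Benjamini-Hochberg adjusted p over all tiles or windows was under 0.05 and its difference at least 10 points.

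The libraries numbered 2 stood apart in both groups, so each result is given for the 4 against 4 libraries (unpaired), by same replicate number, and without both libraries numbered 2 (3 against 3). CD11b-negative 2 and CD11b-positive 2 resembled each other more than any library of their own group. Their tile levels correlated across tiles with r = 0.996, and 2.03% of tiles lay 10 points or more apart. CD11b-negative 2 differed by that much from CD11b-negative 1, 3 and 4 in 39.2%, 43.6% and 44.5% of tiles. CD11b-positive 2 did so from its own group in 25.1%, 28.4% and 29.0%. The libraries numbered 2 also had more calls on 8 Y-linked genes, 39.2 and 40.04 per 1000000 autosomal calls. The other CD11b-negative libraries had 12.2, 10.9 and 8.28 and the other CD11b-positive ones 24.2, 23.3 and 23.2, so without number 2 the groups did not overlap in this share. Mean methylation of X-linked CpGs was 47.6% and 48.0% in the libraries numbered 2 and 53.4% to 57.0% in the others. The part of these library features in the results was not tested beyond adding the share of Y-linked calls as a term, given below. Total calls ran from 112671408 to 157223205 per library.

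CD11b-positive cells carried slightly more methylation on average than CD11b-negative cells outside CpG-dense gene starts and slightly less at them, in each of the 4 same-number pairs. Over all common CpGs the CD11b-negative libraries 1 to 4 had mean levels of 32.0%, 35.2%, 31.8% and 31.5%. The CD11b-positive libraries had 34.0%, 35.6%, 33.7% and 33.8%. CD11b-negative 2 lay above 3 of the 4 CD11b-positive libraries, so the groups overlapped, and apart from it every CD11b-positive library was above every CD11b-negative one. The means were 34.3% ± 0.905 and 32.6% ± 1.72 (SD, n = 4), a difference of 1.65 points that did not exceed the spread (two-sided exact permutation p = 0.114, adjusted over 5 classes p = 0.238). The same-number differences were 1.99, 0.434, 1.88 and 2.31 points, the smallest in pair 2. Without both libraries numbered 2 the means were 33.8% ± 0.143 and 31.7% ± 0.258 (SD, n = 3). That difference of 2.06 points has the smallest exact p that 3 against 3 libraries allow, 0.1. The sign test over 4 pairs also gave its smallest possible p for each class of CpGs. PBS cells had 30.8% ± 0.294 (SD, n = 4).

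Gene starts were classed only where known, so starts of other genes, chromosome 18 included, fall in the rest of genes or outside genes. By class, the 253351 CpGs outside protein-coding genes differed most, 60.2% ± 2.47 against 56.2% ± 4.55, or 3.98 points (exact permutation adjusted p = 0.238, n = 4). The rest of genes, 377579 CpGs in gene bodies, had 47.7% ± 1.60 against 45.1% ± 3.02, and the 51524 CpGs at CpG-sparse gene starts 16.2% ± 0.520 against 15.5% ± 0.946. The 347036 CpGs at CpG-dense gene starts went the other way. Their levels were 4.56%, 1.91%, 5.34% and 5.42% in CD11b-negative and 3.45%, 1.90%, 3.79% and 3.98% in CD11b-positive libraries. Both libraries numbered 2 were the lowest of their groups there and nearly equal. The difference of -1.03 points was within the spread (exact permutation adjusted p = 0.314, n = 4), and was -1.37 points without number 2. CD11b-negative 2 alone decided the unpaired outcome of these 5 comparisons: without it all 5 reached p = 0.0286, the smallest exact p for 4 against 3 libraries.

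**Figure D1:**
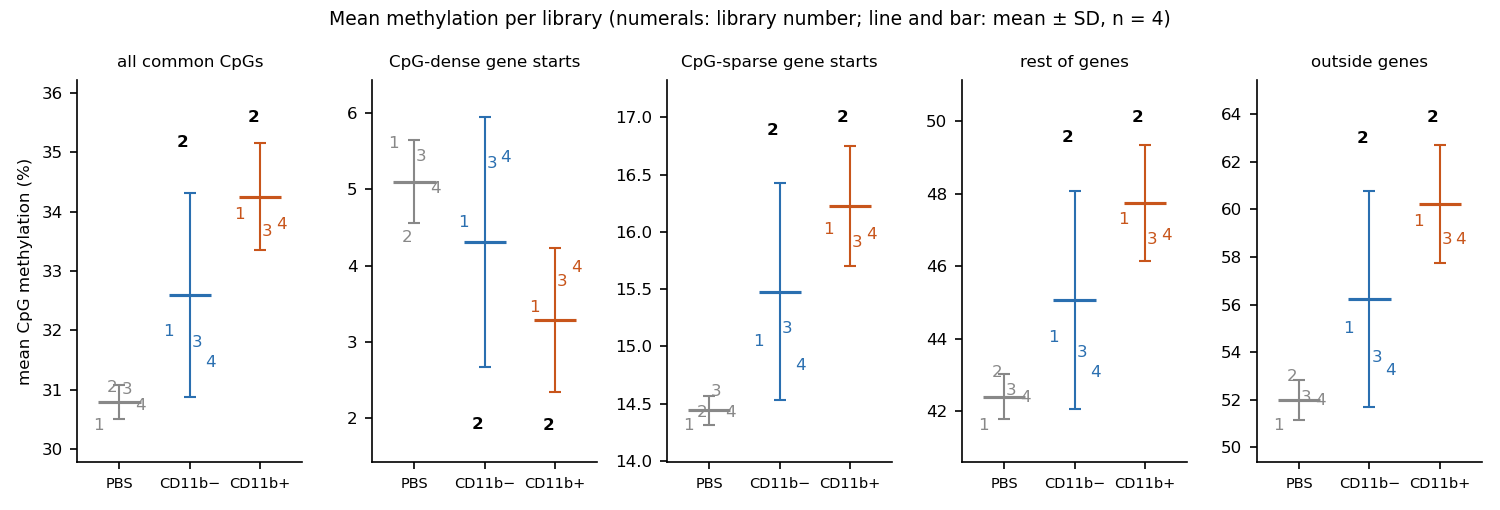
Mean CpG methylation in percent (vertical axes, a separate scale for each panel that does not start at 0) of every PBS, CD11b-negative and CD11b-positive library, for all common CpGs and the 4 classes; numerals are library numbers, lines and bars the mean ± SD of 4 libraries. The libraries numbered 2 (black, 35.2% and 35.6% over all common CpGs) sit together and away from the others of their groups.

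No tile and no gene window passed in the unpaired comparison of 4 against 4 libraries (0 of 84569 tiles, 0%; 0 of 13498 windows, 0%; quasi-binomial F test). edgeR also passed 0 of both. At an unadjusted p under 0.05 the quasi-binomial test had 9241 tiles and 940 windows, and edgeR 3005 and 539. By same number 11548 tiles (13.7%) passed, 9989 higher (11.8%) and 1559 lower (1.84%) in CD11b-positive cells. Without both libraries numbered 2, 17384 tiles (20.6%) passed, 15284 higher (18.1%) and 2100 lower (2.48%). By same number 546 windows (4.05%) passed, 113 higher (0.837%) and 433 lower (3.21%). Without number 2, 720 windows (5.33%) passed, 261 higher (1.93%) and 459 lower (3.4%). In both fits more tiles passed as higher than as lower, and more windows as lower than as higher. With the share of Y-linked calls as a further term, 0 tiles and 0 windows passed in either fit. The split of the windows was not stable. Of the 85 windows that passed at 25 points or more without number 2, 39 were higher and 46 lower, and of the 9 by same number 7 were higher. Leaving out CD11b-positive 1 or 3 as well as number 2 gave 71 higher and 67 lower, and 70 and 56. In the unpaired fit the outcome turned on CD11b-negative 2: without that library alone 17775 tiles and 176 windows passed, the windows with 114 higher and 62 lower. The groups of 4 did not overlap at 2204 tiles (2.61%), and the groups of 3 at 41330 (48.9%). For windows these numbers were 325 (2.41%) and 4234 (31.4%). Random assignment of libraries would keep 4 and 4 apart at a share of 0.0286, and 3 and 3 at a share of 0.1. The 4 against 4 shares of tiles and windows were no higher than that.

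The features with the smallest unpaired p and no overlap of the groups, none of which passed, were mostly near 0 or near full methylation. Among windows they were Tmem120b (1.55% ± 0.173 against 3.11% ± 0.388, SD, n = 4, adjusted p = 0.385), Lsm14b, Kctd2, Gsdme and Dnm1l, which were higher in CD11b-positive cells by 0.641 to 2.54 points. Ifitm2, Adamts5, Zfyve9, Triqk and Drd1 were lower, Ifitm2 by 15.9 points and the others with differences of -1.61 to -0.459 points. Among tiles they lay near Wapl and Ace, both under 10%, in Fam172a and Brd3, both over 90%, and in Ets1, an ETS transcription factor gene. The Ets1 tile (chr9:32710001-32711000) had 2.11%, 4.47%, 2.52% and 5.52% against 12.2%, 14.2%, 13.7% and 17.7%. Tiles at Nek2, Naa11, Cxcl9, Tpcn1 and Sgms2 were lower (adjusted p = 0.383 for each of the 10 tiles).

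The 15284 tiles that passed as higher without number 2 had median levels of 55.3%, 51.2% and 48.7% in CD11b-negative 1, 3 and 4, and of 72.5%, 68.4% and 68.6% in CD11b-positive 1, 3 and 4. The libraries that this fit did not use stood at 85.1% (CD11b-negative 2) and 87.0% (CD11b-positive 2), above all others. PBS libraries ran from 43.8% to 54.1%. The 2100 tiles that passed as lower had 42.4%, 51.4% and 53.1% against 26.6%, 31.2% and 32.8%. Here the libraries numbered 2 were the lowest, at 7.55% and 7.18%. In both directions CD11b-positive libraries thus lay between the other CD11b-negative libraries and the pair numbered 2.

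Pair 2 was not used to choose those tiles, and it moved the same way with a smaller size. Its difference had the same sign at 70.4% of the tiles that passed as higher, against 60.04% of all tiles, and at 62.9% of those that passed as lower, against 39.8%. The median difference of pair 2 was 1.55 points at the former and -0.339 at the latter. Pairs 1, 3 and 4, which chose them, had medians of 15.8, 15.6 and 18.04 points and of -14.2, -17.4 and -18.1 points.

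**Figure D2:**
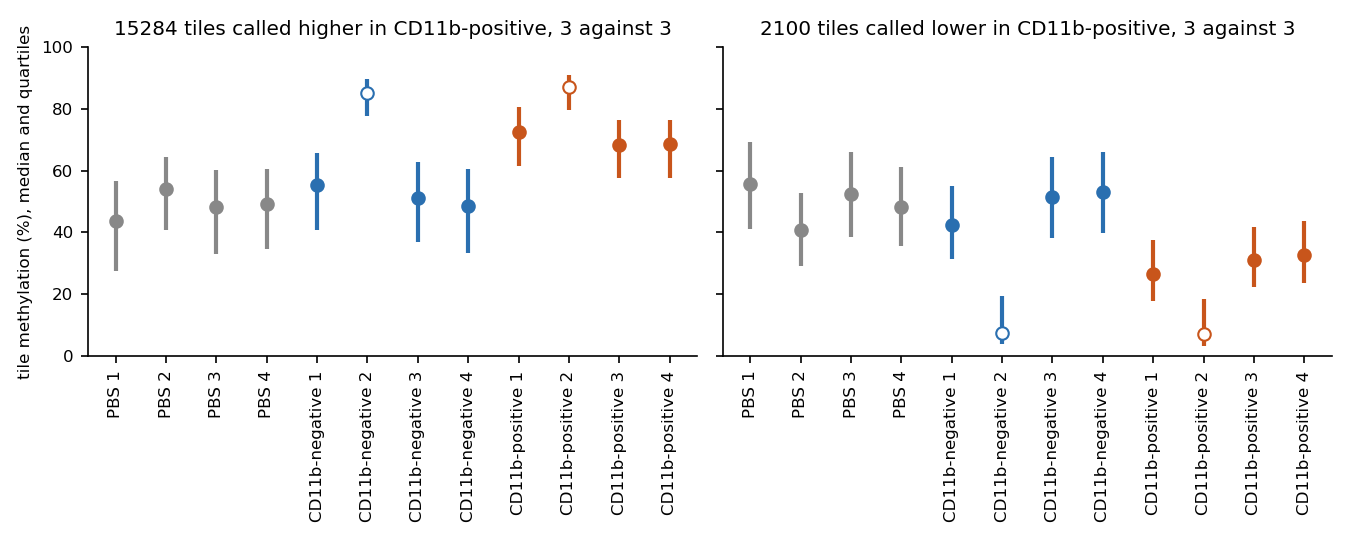
Median and quartiles of tile methylation in percent (vertical axes) in each of the 12 libraries, for the 15284 tiles higher (left) and the 2100 tiles lower (right) in CD11b-positive cells without both libraries numbered 2. The libraries numbered 2 lie at 85.1% and 87.0% on the left and at 7.55% and 7.18% on the right, beyond both groups.

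Where the passing tiles lay depended on CpG density and on the level in PBS cells. Neither entered the tests directly. The minimum of 10 points leaves tiles near no or full methylation little room to pass, and the spread was moderated within bins of level. Part of the dependence on level may thus be built in. CpG-dense gene starts with 20 to 80% methylation in PBS cells stood out by their share of losses. Most lower tiles lay in the other classes, since CpG-dense gene starts held 488 of 1559 by same number and 596 of 2100 without number 2. Of 920 such tiles, 52.2% passed as lower by same number and 62.6% without number 2, against 1.84% and 2.48% of all tiles, and 2.72% and 3.15% passed as higher. Their median difference was -10.5 points over 4 against 4 libraries and -13.8 points over 3 against 3. Elsewhere partly methylated tiles passed mostly as higher. In gene bodies, 26.8% of 18558 tiles at 20 to 80% in PBS cells passed as higher by same number and 39.2% without number 2, with 3.08% and 4.17% lower. Outside genes the shares were 22.0% and 35.3% of 17301 tiles. The median number of CpGs within 250 bp on each side was 28.1 for tiles that passed as lower, 9.6 for those that passed as higher and 13.2 for all tiles.

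**Figure D3:**
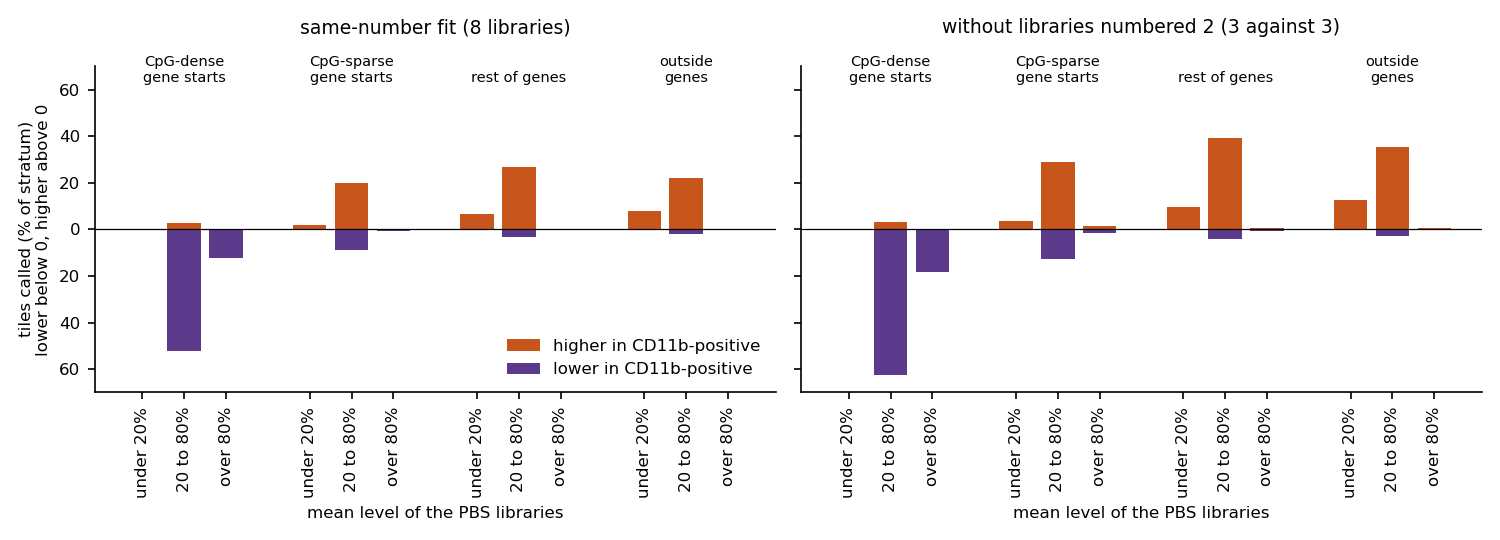
Share of tiles in percent that passed as higher (above 0) or lower (below 0) in CD11b-positive cells, by position and by mean level in PBS cells, in the same-number comparison (left) and without the libraries numbered 2 (right). The bars below 0 are tallest at CpG-dense gene starts with 20 to 80% in PBS cells, 52.2% and 62.6%.

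The passing tiles were mostly isolated. Those that passed without number 2 formed 13437 runs of higher tiles no more than 5000 bp apart, 11975 of them a lone tile, and 1597 runs of lower tiles, 1205 of them a lone tile. The longest higher run had 9 tiles in Lrp1, which encodes an endocytic receptor, with a mean of 53.6% in CD11b-negative and 72.6% in CD11b-positive 1, 3 and 4. It was followed by 8 tiles in Arhgef17 at 46.0% and 66.8%. The longest lower runs had 6 tiles at Irx1, a homeobox gene (46.1% and 28.1%), and 6 at Wnt5a, which encodes a secreted Wnt ligand (37.3% and 21.2%). Gli2, a transcription factor of Hedgehog signalling, had 5 lower tiles at 52.0% and 33.1%. The libraries numbered 2 had 92.0% and 92.9% over the Lrp1 run and 7.67% and 7.29% over the Irx1 run.

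The gene windows with the largest differences were taken from the 473 (3.5%) that passed both by same number and without number 2, 107 higher (0.793%) and 366 lower (2.71%). The 2 comparisons share 6 libraries and are not independent, and none of these windows passed unpaired (adjusted p = 0.536 for each). RefSeq gave a promoter sequence, from 250 bases before to 50 bases after the start on GRCm38.p6 (mm10), for 17 of the 24 windows named. Shown are the 3 gains and the 3 losses of largest difference that have at least 3 measured CpGs in the sequence, because they let CpG-sparse gains be compared with CpG-denser losses. They are written 5′ to 3′ along the gene, with the measured CpGs in capitals.
Spata46, chr1:170308569-170308868, + strand: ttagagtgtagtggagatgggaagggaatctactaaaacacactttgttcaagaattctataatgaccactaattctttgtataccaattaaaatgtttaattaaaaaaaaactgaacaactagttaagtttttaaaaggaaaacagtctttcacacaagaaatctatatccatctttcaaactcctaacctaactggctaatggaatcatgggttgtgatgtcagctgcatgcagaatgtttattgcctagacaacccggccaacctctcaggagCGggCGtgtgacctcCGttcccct
Rhd, chr4:134864286-134864585, + strand: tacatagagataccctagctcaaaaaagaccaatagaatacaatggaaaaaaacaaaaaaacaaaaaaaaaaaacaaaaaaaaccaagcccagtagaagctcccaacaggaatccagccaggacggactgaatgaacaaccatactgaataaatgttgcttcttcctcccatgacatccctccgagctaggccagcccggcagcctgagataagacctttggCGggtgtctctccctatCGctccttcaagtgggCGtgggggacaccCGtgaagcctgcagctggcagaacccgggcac
Slc41a3, chr6:90618996-90619295, + strand: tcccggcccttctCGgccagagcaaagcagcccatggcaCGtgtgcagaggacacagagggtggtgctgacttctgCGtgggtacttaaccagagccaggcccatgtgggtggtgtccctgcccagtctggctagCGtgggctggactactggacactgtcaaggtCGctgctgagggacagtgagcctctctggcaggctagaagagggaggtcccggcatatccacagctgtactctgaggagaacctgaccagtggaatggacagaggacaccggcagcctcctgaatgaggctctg
Kazn, chr4:142239352-142239651, - strand: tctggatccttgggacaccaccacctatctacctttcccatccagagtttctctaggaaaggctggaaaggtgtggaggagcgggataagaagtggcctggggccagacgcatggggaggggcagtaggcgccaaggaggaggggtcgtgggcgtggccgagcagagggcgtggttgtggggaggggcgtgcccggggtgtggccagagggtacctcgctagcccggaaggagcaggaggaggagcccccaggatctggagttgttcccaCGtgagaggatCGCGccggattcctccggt
Lpcat2, chr8:92855083-92855382, + strand: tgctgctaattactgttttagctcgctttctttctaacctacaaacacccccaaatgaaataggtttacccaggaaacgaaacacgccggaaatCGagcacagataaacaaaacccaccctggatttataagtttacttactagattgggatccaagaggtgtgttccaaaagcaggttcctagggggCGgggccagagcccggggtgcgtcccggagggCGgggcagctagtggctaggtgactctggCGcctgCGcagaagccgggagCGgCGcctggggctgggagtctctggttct
Apba2, chr7:64501888-64502187, + strand: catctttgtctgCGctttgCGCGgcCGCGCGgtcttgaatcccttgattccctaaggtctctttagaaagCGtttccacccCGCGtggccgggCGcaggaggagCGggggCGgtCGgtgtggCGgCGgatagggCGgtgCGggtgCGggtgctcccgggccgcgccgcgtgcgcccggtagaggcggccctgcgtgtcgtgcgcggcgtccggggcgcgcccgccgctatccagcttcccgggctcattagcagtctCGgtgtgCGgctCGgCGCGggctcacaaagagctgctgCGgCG
The 3 gained promoters hold 4 (Spata46), 8 (Rhd) and 8 (Slc41a3) CpGs in these 300 bases, and the 3 lost ones 16 (Kazn), 15 (Lpcat2) and 45 (Apba2). Of these, 3, 4 and 5 and 3, 7 and 25 were measured in all 8 libraries.

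The measured CpGs of a promoter moved together. At the 4 measured CpGs of Rhd, positions 223, 240, 256 and 269 counted from 1 at the 5′ end, CD11b-positive libraries 1, 3 and 4 were higher by 33.1, 32.5, 34.0 and 29.6 points on average. In Spata46 the 3 measured CpGs differed by 35.2 to 39.0 points, and in Slc41a3 the 5 by 30.3 to 43.7 points. Lpcat2 varied more along its sequence. Its CpG at position 189 was already low, 8.1% against 3.3%, while the CpG at position 271, just inside the transcript, went from 73.8% to 31.6%. In Apba2 the 25 measured CpGs differed by -7.38 to -42.1 points.

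Rhd, which encodes the Rh blood group protein of red cell membranes, gained methylation at its start (chr4:134863536-134865536, 8 CpGs). Its window had 24.7%, 62.8%, 20.3% and 17.0% in CD11b-negative 1 to 4 and 56.4%, 79.2%, 53.8% and 50.3% in CD11b-positive 1 to 4. CD11b-negative 2 was above 3 of the CD11b-positive libraries, so the groups overlapped, but each CD11b-positive library was above the CD11b-negative one of its number. PBS cells had 9.60% ± 3.63 (SD, n = 4). The difference was 32.8 points without number 2 (53.5% ± 3.08 against 20.7% ± 3.86, SD, n = 3, quasi-binomial adjusted p = 0.00456) and 28.7 points over all 8 libraries (same-number adjusted p = 0.00428). Ermap, another red cell membrane protein gene, had 17.6%, 63.5%, 17.3% and 9.69% against 57.8%, 73.9%, 50.6% and 42.1%, with 8.06% in PBS cells. Its difference without number 2 was 35.3 points (adjusted p = 0.0121; same number, 0.0190). In both genes the pattern over libraries was alike, with CD11b-negative 2 among the CD11b-positive values.

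Gdf3, a ligand of the TGF-beta family known from pluripotent cells, had the largest window gain. Its window at a gene end (chr6:122609087-122611087, 10 CpGs) had 15.02%, 67.7%, 23.1% and 12.3% in CD11b-negative and 53.5%, 75.1%, 55.8% and 56.4% in CD11b-positive libraries. The difference was 38.4 points without number 2 (adjusted p = 0.00592; same number, 0.0202), with 12.9% in PBS cells. Spata46, a gene of sperm formation, had 24.1%, 85.5%, 24.4% and 13.1% against 66.4%, 90.2%, 50% and 49.5%. Both libraries numbered 2 were nearly fully methylated there, and the other CD11b-positive libraries were intermediate. Slc41a3, a magnesium transporter gene, had 17.4%, 62.4%, 13.0% and 11.1% against 41.1%, 65.7%, 39.98% and 46.95%, a difference of 28.9 points without number 2 (adjusted p = 0.00543; same number, 0.0332). The other gains of the 12 largest, 29.2 to 34.9 points without number 2, were at Slc39a4 (a zinc transporter), Slc6a21, Poglut3, Dapp1 (an adaptor of antigen receptor signalling), 4930415O20Rik, the olfactory receptor gene Olfr281 and 1300017J02Rik. With the share of Y-linked calls as a further term over the 8 libraries, 10 of the 12 gains kept their sign, at 1.94 (Dapp1) to 14.8 points (Gdf3), none with an adjusted p under 0.05, and Olfr281 and 4930415O20Rik turned negative.

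The 12 largest losses were at windows that were methylated in CD11b-negative 1, 3 and 4 and low, at 1.197% to 18.2%, in both libraries numbered 2. Kazn, which encodes a protein of cell junctions, had 58.3%, 2.45%, 73.2% and 76.4% in CD11b-negative and 29.9%, 1.501%, 41.0% and 42.1% in CD11b-positive libraries. Both libraries of pair 2 were near 0 and differed little, and the other pairs did not overlap. Kazn differed by -31.7 points without number 2 (37.7% ± 6.78 against 69.3% ± 9.67, SD, n = 3, adjusted p = 0.0266; same number, 0.00123). Lpcat2, an acyltransferase that makes platelet-activating factor, had 52.6%, 1.95%, 58.2% and 64.7% against 18.2%, 1.197%, 35.1% and 31.7%. Its difference was -30.2 points without number 2 (adjusted p = 0.0210; same number, 0.00324). Apba2, a neuronal adaptor of the amyloid precursor protein, had 63.4%, 8.51%, 77.4% and 77.6% against 31.6%, 9.49%, 46.7% and 49.8%, so pair 2 did not share the direction. PBS cells had 68.6% at Kazn, 56.6% at Lpcat2 and 74.1% at Apba2, near CD11b-negative 1, 3 and 4.

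The other 9 of the 12 largest losses, -35.3 to -27.7 points without number 2, were at Npbwr1 (a neuropeptide receptor), Gm9222, Lurap1l, Tafa5 (a secreted chemokine-like protein), LOC108167368, Cdh4 (a cadherin), Mansc4, Lrrc38 (a potassium channel subunit) and Grin2a (a glutamate receptor subunit). In Mansc4, as in Apba2, pair 2 was slightly higher in the CD11b-positive library, and in the other 10 all 4 pairs were lower. The share of Y-linked calls moved with these losses. With it as a term over the 8 libraries, the differences of 11 of the 12 windows turned positive, among them 14.6 points at Kazn (adjusted p = 0.250) and 12.9 at Lpcat2 (adjusted p = 0.431), and only Npbwr1 stayed lower. Without number 2 the Y share and the group cannot be told apart.

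**Figure D4:**
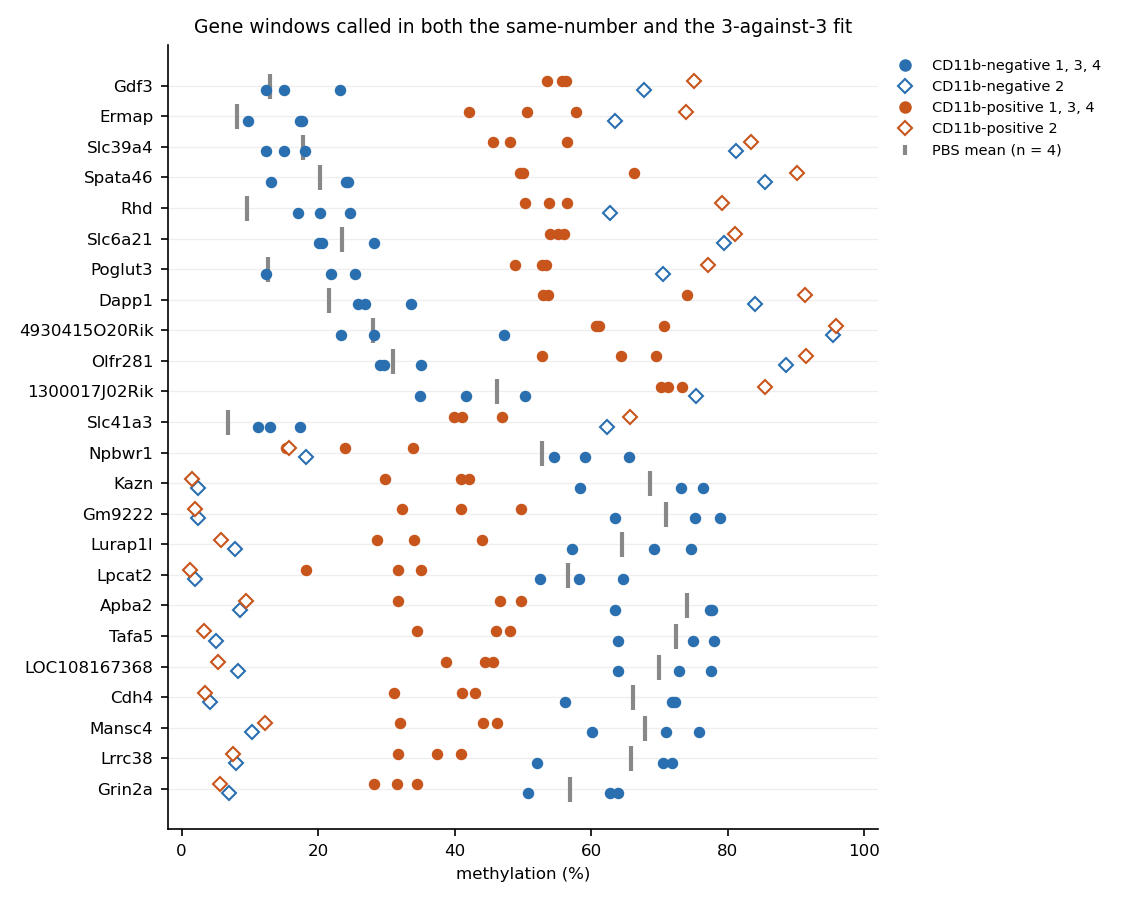
Methylation in percent (horizontal axis) of the 24 windows with the largest gains and losses among those that passed by same number and without number 2; dots are CD11b-negative and CD11b-positive libraries 1, 3 and 4, open diamonds the libraries numbered 2 and bars the PBS mean (n = 4). At Rhd the diamonds lie at 62.8% and 79.2% and at Kazn at 2.45% and 1.501%, at the far end in the direction of the difference.

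Tiles gave larger single differences, and 11202 tiles (13.2%) passed in both comparisons, 9716 higher (11.5%) and 1486 lower (1.76%). A tile in Hoxb3, a homeobox gene of blood progenitors, at chr11:96342001-96343000 had 10.1%, 57.3%, 18.8% and 2.5% in CD11b-negative libraries. In CD11b-positive libraries it had 86.7%, 33.3%, 48.7% and 46.0%, so pair 2 went the other way (50.005 points without number 2, adjusted p = 0.00873; same number, 0.0436). Bloc1s5, Dchs1 and Nyap1 and tiles near Tmem121 (24478 bp away) and Tuba1c (1896 bp away) followed with 45.9 to 49.0 points. The largest losses, -42.1 to -34.3 points, were at Gm40864, Gm9222, Hs3st4 (a heparan sulphate sulphotransferase), Ccdc60, Mbnl2 (a splicing factor) and Btbd11. Some of these tiles had few calls per library, 87 to 255 in Hoxb3, 72 to 471 in Bloc1s5 and 65 to 193 in Btbd11. The median was 642 per tile and library. Others had more, 855 to 1555 in Nyap1, 1658 to 3310 in Gm9222 and 703 to 2287 in Hs3st4.

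At 55 tiles (0.065%) the groups of 4 did not overlap and CD11b-positive cells were at least 10 points apart in the same direction in all 4 pairs, number 2 included. This set was formed after values were seen and its size was not tested. It was drawn from the 2.61% of tiles without overlap, a share no higher than the 0.0286 of random assignments. It held 29 tiles that were higher (0.0343%) and 26 that were lower (0.0307%), and 37 lay in genes. The 26 lower tiles had medians of 78.6%, 73.7%, 80.5% and 80.6% in CD11b-negative and 57.3%, 60.2%, 59.6% and 58.7% in CD11b-positive libraries. PBS libraries, which played no part in the choice, had medians of 81.4% to 83.1%, above each of the CD11b-negative medians. The 29 higher tiles had 39.0%, 49.0%, 36.2% and 36.1% against 58.8%, 65.6%, 54.5% and 60.3%, with 34.7% to 39.3% in PBS libraries.

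Among the lower tiles, a tile in Myh9, the heavy chain of non-muscle myosin (chr15:77832001-77833000, 4 CpGs), had 82.8%, 76.4%, 89.7% and 87.5% in CD11b-negative and 51.3%, 59.0%, 51.2% and 69.3% in CD11b-positive libraries. PBS cells had 91.6%, and the mean difference was -26.4 points. In Notch2, a receptor that directs cell fate (chr3:98024001-98025000, 7 CpGs), the levels were 81.1%, 68.7%, 79.0% and 80.9% against 57.6%, 49.7%, 59.4% and 50.9%, a difference of -23.0 points. A tile 4944 bp from Mcl1, which encodes a survival factor of the Bcl2 family, differed by -16.7 points, one in the interferon-induced GTPase gene Gbp3 by -16.3 and one in Samsn1, an adaptor of blood cells, by -16.1. Uimc1, a DNA repair gene, differed by -23.4 points. The nearest coding gene to another lower tile was Irf8, which encodes a regulator of monocyte and dendritic cell fate, at 145307 bp (chr8:120902001-120903000, 3 CpGs). That tile had 74.7%, 66.1%, 74.1% and 78.9% against 55.6%, 52.8%, 59.4% and 64.6%, a difference of -15.4 points.

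Among the higher tiles, one in Nol4l (chr2:153455001-153456000, 4 CpGs) had 8.12%, 38.7%, 26.0% and 12.1% in CD11b-negative and 44.2%, 65.6%, 54.1% and 57.9% in CD11b-positive libraries. PBS cells had 10.1%, and the mean difference was 34.2 points. Tiles in Btbd9, Lhfpl2 and Cbx2, the last a Polycomb protein gene, differed by 25.1, 23.7 and 21.9 points, and one 11586 bp from Tgfbi, a secreted matrix protein gene, by 22.4 points. Of the 55 tiles, 51 passed by same number and 52 without number 2, and 6 passed unpaired with the Y share as a term.

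When the spread was estimated over all 12 libraries, 11 tiles (0.013%) passed in the unpaired comparison of 4 against 4, each lower in CD11b-positive cells, and each over 80% in PBS cells. With the spread of the 8 libraries alone all 11 had an adjusted p of 0.383. PBS libraries varied less over all common CpGs (SD 0.294) than CD11b-negative (1.72) and CD11b-positive libraries (0.905). Adding them can thus understate the spread of the 8 libraries compared, and they took part in choosing these tiles. The tile with the largest difference lay 14452 bp from Iqgap1, a scaffold of the actin cytoskeleton (chr7:80830001-80831000, 3 CpGs). Its levels were 76.8%, 66.2%, 82.7% and 81.7% against 46.8%, 51.3%, 50.7% and 56.5%, with 86.7% in PBS cells. Cxcl9, an interferon-induced chemokine, lay 2331 bp from a tile with 82.8%, 86.5%, 83.2% and 80.2% against 68.6%, 66.0%, 69.3% and 67.1% (chr5:92318001-92319000, 7 CpGs). The groups were well apart there, and CD11b-negative 2 was the highest library rather than one close to the CD11b-positive group.

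Ifitm2, an interferon-induced membrane protein gene, was the only window (0.00741%) that passed this way, with 3 CpGs at chr7:140954961-140956961. It had 88.2%, 79.8%, 88.0% and 87.8% in CD11b-negative and 70.8%, 72.2%, 71.4% and 66.0% in CD11b-positive libraries, and 87.7% ± 1.96 in PBS cells (SD, n = 4). The difference was -15.9 points over 4 against 4 and -18.6 without number 2 (adjusted p = 0.000261; same number, 0.0158). A tile at Nek2, a mitotic kinase gene (chr1:191833001-191834000, 3 CpGs), had 90.7%, 94.8%, 90.2% and 90.1% against 78.8%, 76.7%, 75.8% and 76.6%. The others were in Sgms2 (sphingomyelin synthase, -17.4 points), Ets2 (a transcription factor, -16.4), Snx18 (-15.9), Creb1 (a transcription factor, -15.5), Fbxo31 (-13.2), Tpcn1 (-12.2) and Cux1 (-11.1). With the Y share as a term over the 8 libraries, 39 tiles (0.0461%) passed unpaired, 24 higher (0.0284%) and 15 lower (0.0177%) after that adjustment. Of the 24, 19 were lower in CD11b-positive cells in the measured means and turned with the term. Of the 15, 14 were lower in the measured means too, among them Nek2 (adjusted p = 0.00513) and the tiles at Sgms2, Cxcl9, Fbxo31 and Tpcn1.

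**Figure D5:**
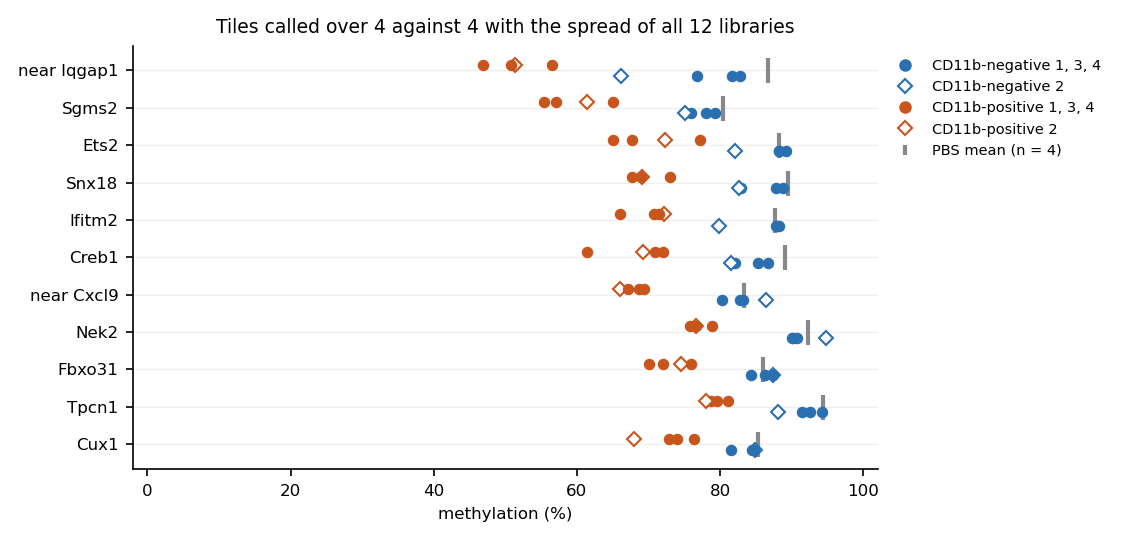
Methylation in percent (horizontal axis) of the 11 tiles that passed over 4 against 4 libraries when the spread came from all 12 libraries; symbols as for the windows. The CD11b-positive libraries lie below every CD11b-negative library in each of the 11 tiles, and the PBS mean lies within or above the CD11b-negative group, above it for example near Iqgap1 at 86.7%.

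The DNA methyltransferase and TET genes had low levels at their starts in both populations. Dnmt1 had 0.406%, 0.481%, 0.528% and 0.540% in CD11b-negative and 0.698%, 0.587%, 0.592% and 0.527% in CD11b-positive libraries. Dnmt3a had 0.611% ± 0.0537 against 0.682% ± 0.155 and Dnmt3b 0.689% ± 0.176 against 0.541% ± 0.267 (SD, n = 4), with overlapping groups. Tet1 had 2.05% against 1.74%, Tet2 0.589% against 0.505% and Uhrf1 0.510% against 0.505%. Tet3 had 4.60% ± 1.92 against 6.30% ± 1.38, and its difference of 2.30 points without number 2 had an adjusted p of 0.0203 but was under 10 points. Over the 22 measured of 24 genes of the DNA methylation machinery 0 windows passed in any of the 3 comparisons, against 4.05% and 5.33% of all windows by same number and without number 2. Of the 22, 19 were under 5%, as were 9746 of all 13498 windows, and a loss of 10 points cannot occur from such a level. In or within 5000 bp of the genes, 1 of 10 Dnmt3a tiles and 1 of 8 Uhrf1 tiles passed as higher by same number and without number 2. Among all tiles 11.5% did. In the Dnmt3a tile (chr12:3871001-3872000) the levels were 15%, 51.4%, 13.0% and 11.3% against 24.9%, 52.1%, 29.4% and 32.4%. None of 9 Dnmt1, 2 Dnmt3b, 4 Tet2 and 12 Tet3 tiles passed in these comparisons, and of 7 Tet1 tiles 2 passed, as higher, only without number 2. Methylation does not measure the amount of these enzymes.

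CD11b itself could be followed at 1 tile only, because the start of Itgam lacked common CpGs. Near Itgam the level was 36.5% in CD11b-negative cells, with a difference of 4.30 points over 4 against 4 libraries and 8.55 points without number 2, neither of which passed. In or within 5000 bp of Itgb2, its partner, 3 of 4 tiles passed as higher by same number and without number 2, by 14.6 to 16.0 points over all 8 libraries. Among all tiles 11.5% passed as higher in both. The 3 tiles were at 36.2% to 53.2% in PBS cells. At 20 to 80% in PBS cells, 23.8% of tiles passed as higher by same number and 36.3% without number 2. Whether the counts near these genes exceed such shares was not tested. The Itgb2 window at a gene end was low (7.40% ± 4.34 against 5.90% ± 1.93). Near Itgax, which encodes CD11c, 2 of 6 tiles passed as higher, both outside the gene. Itgad, a further integrin chain of this family, passed as higher at a gene end (16.1 points without number 2), and its libraries numbered 2 were at 87.2% and 89.9%.

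For the receptor and signalling genes around the treatment, starts were again low and similar. Stat3 had 0.537% ± 0.0510 in CD11b-negative and 0.571% ± 0.0741 in CD11b-positive cells, and Socs3, its feedback inhibitor, 0.692% against 0.663% (SD, n = 4). A tile inside Stat3 (chr11:100891001-100892000) passed as higher, with 26.7%, 60.3%, 16.4% and 16.2% against 47.4%, 68.3%, 46.8% and 45.9%. PBS cells had 8.96% there. Irf8 had 4.07% ± 1.38 against 3.38% ± 1.32 at its start, and 2 of 12 tiles in or near it passed as higher, as did 1 of 4 near Socs3. Among all tiles 11.5% passed as higher both by same number and without number 2. Tlr9 was measured at 1 tile, with a difference of 4.99 points. Of 27 measured STAT3 pathway genes and 22 measured TLR9 and NF-kB genes, 0 windows passed in any of the 3 comparisons, beside the same 4.05% and 5.33% of all windows. Of these windows 25 of 27 and 21 of 22 were under 5%, so nearly all could not have lost 10 points.

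Genes of the core binding factor and of blood progenitors had low starts and higher levels inside. Runx1 (0.750% against 0.930% at its start), Cbfb (0.621% against 0.518%), Kit (0.476% against 0.833%) and Gata2 (3.62% against 3.90%) did not pass at their starts. In or within 5000 bp of Runx1, which encodes the partner of the Cbfb product, 5 of 19 tiles passed as higher, by 11.3 to 21.9 points over 8 libraries. In Kit, the stem cell factor receptor, 1 of 8 tiles passed (chr5:75608001-75609000), with 26.0%, 75.4%, 19.2% and 18.96% against 48.4%, 81.8%, 52.0% and 54.5% and 9.02% in PBS cells. Myh11, whose gene is joined to Cbfb by inv(16) in human leukaemia, had 1 of 3 tiles higher. The myeloid genes Spi1 (82.3% against 89.5%), Cebpa (1.87% against 1.45%), Cebpe (56.6% against 64.5%), Csf1r (72.9% against 78.8%) and Csf3r (10.2% against 6.35%) did not pass at their windows in any of the 3 comparisons. Tiles in or within 5000 bp did pass as higher, by same number and without number 2, at Csf1r (1 of 4), Gata2 (2 of 13), Lmo2 (1 of 4), and the antigen presentation genes Cd86 (1 of 2) and Ciita (1 of 4). Over the 30 genes given for this description, 25 of 171 tiles in or within 5000 bp passed as higher and 0 as lower by same number and without number 2. That share, 14.6%, lies near the 11.5% of all tiles that passed as higher in both.

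Of the 19 gene lists examined, erythroid genes had the most windows that passed as higher. Of 16 measured of 32 erythroid and megakaryocyte genes, 3 (Rhd, Ermap and Trim10) passed as higher by same number, against 0.837% of all windows, and 4 without number 2, with Epor, the erythropoietin receptor, at 19.6 points. The list's median difference was 0.417 points, and 1.60 without number 2, against 0.0270 and 0.0321 over all windows. These erythroid genes were pointed out in earlier work on these files, so the count is a description. Germline genes, normally silenced by methylation, had a median of 3.86 points over 20 measured of 24, and Tex101, Hormad1 and Brdt passed as higher without number 2 (10.2, 10.8 and 18.003 points), against 1.93% of all windows, and 0 did by same number. Imprinted genes (23 of 32 measured) had 2 windows lower, Dlk1 (-25.7 points without number 2) and Magel2 (-14.1), and 0 higher, against 3.21% and 3.4% of all windows lower by same number and without number 2.

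Single members passed in other lists. Lower were Apoe (-22.1 points without number 2), a lipid carrier made by macrophages, Sfrp1 (-23.3), a secreted Wnt inhibitor, Id4 (-19.1), Prdm16 (-17.3), a stem cell regulator, Bcl11b (-24.2), a T cell transcription factor, and the chemokine gene Cxcl12 (-19.2). Higher were Rag1 (19.3 points), a recombinase of lymphocytes, and Kdm6b (22.8), a histone demethylase, and, without number 2 only, Lmo2 (16.3) and Esr1 (15.7). These were 1 or 2 windows of a list in either direction, beside 3.21% of all windows that passed as lower and 0.837% as higher by same number, so nothing is read from them about the lists. No window passed in any of the 3 comparisons among 13 measured dendritic cell genes, 5 neutrophil genes, 16 antigen presentation genes, 12 interferon-stimulated genes and 16 housekeeping genes, of which 9, 1, 14, 10 and 16 were under 5%. With 4.05% of all windows passing by same number, lists of this size hold none or 1 at the background share. In 1 tile near H2-Ab1, an MHC class II gene, the difference was -0.284 points. RNA was not analysed here, so markers of other cell types could be followed by methylation only, and whether other cells were in the sorts was not tested.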

How the data were processed

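DNA methylation was measured by reduced representation bisulfite sequencing in 12 libraries, of which the 4 CD11b-negative and 4 CD11b-positive ones are compared. The files deposited by the authors hold counts per CpG cytosine and strand, methylated and unmethylated, not normalised. The build was mm10, and the submitters' processing notes list methylKit 1.20.0, Bismark, cutadapt 2.7 and Trim Galore 0.6.4. The sources used give no Bismark version and no handling of duplicate reads, so copies of a molecule may be counted more than once.

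From these deposited counts, strands were summed, autosomal CpGs with at least 10 calls in all 8 libraries kept, and tiles of 1000 bp and gene windows with at least 3 of them formed. RefSeq (GRCm38.p6) gave genes and starts. CpG-dense means 25 or more listed CpGs within 250 bp on each side. Gene starts on chromosome 18 were not used, so its windows lie at gene ends. Totals per library were 112671408 to 157223205 calls, and a tile had a median of 642 calls per library. The squared difference between 2 libraries, relative to that from counting error, was averaged over tiles. It ran from 2.18 (CD11b-positive 3 and 4) to 99.3 (CD11b-negative 4 and CD11b-positive 2). Counting error was thus small beside the differences between most libraries, but not between the closest ones.

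Summed counts were fitted in Python 3.11.15 with a quasi-binomial logistic model and F test. The dispersion was moderated by empirical Bayes, written in Python after squeezeVar of limma. This was done within bins of level bounded at 5, 20, 80 and 95%, and the dispersion was not allowed under 1. The fit was made unpaired, with the replicate number as a block, and 3 against 3. edgeR 4.0.16 was the alternative. The scripts were tested on simulated data. Class means were compared by exact permutation over 70 assignments.

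Same-numbered libraries deviated together from their group means (r over tiles 0.151, 0.925, 0.646 and 0.674), so the numbers were taken to pair them. No label says what a number shares, and libraries 3 and 4 correlated as strongly across numbers (0.680 and 0.658). Without number 2 the same-number values were 0.199, 0.0353 and 0.140.

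The members and gene lists were chosen with earlier results of these data known. Named windows were the 12 largest gains and 12 largest losses, and named tiles the 6 and 6 largest. The rule was written for features that passed unpaired without overlap. As none passed, it was applied to those that passed by same number and without number 2, a choice made after the values were seen, and the 5 features of smallest unpaired p in each direction were added. The 30 given genes and the member of each list with the largest gain and loss were named too. Some results are not reported here. Alternatives were other minimums of calls and CpGs, window sizes, a larger difference, spread from all 12 libraries, the Y share as a term, edgeR, and leaving out each library.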

Additional observations from a re-analysis of the deposited data

Results flagged for a closer look

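Of 18 groups of 4 library totals and class means, 10 held a library far from the other 3 by Dixon's criterion. Chance alone flags about 1 in 20 independent groups, whereas these 18 share libraries and overlapping CpGs. CD11b-negative 2 had 39.2 Y-linked calls per 1000000 autosomal calls and CD11b-positive 2 had 40.04. Their mean levels were 35.2% and 35.6% over all common CpGs, 16.9% and 17.0% at CpG-sparse starts and 49.6% and 50.1% in the rest of genes, and CD11b-positive 2 had 63.9% outside genes, each the highest of its group. CD11b-positive 4 had the fewest calls of its group, 117165833.

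Of 116 groups of values of named windows and tiles, 22 held such a library, and in 21 it was one numbered 2 (18 CD11b-negative 2, 3 CD11b-positive 2). CD11b-negative 2 stood far above the other CD11b-negative libraries at the windows of Ermap (63.5%), Slc39a4 (81.2%), Spata46 (85.5%), Rhd (62.8%), Slc6a21 (79.4%), Dapp1 (84.0%), Olfr281 (88.5%), Slc41a3 (62.4%), Lmo2 (45.5%), Epor (34.0%) and Lsm14b (2.17%). It also did so at tiles near Tmem121 (89.0%) and Tuba1c (87.4%) and in Nyap1 (92.9%) and Nek2 (94.8%). It stood far below them at the window of Ifitm2 (79.8%) and at tiles near Naa11 (85.4%) and in Mbnl2 (26.5%). CD11b-positive 2 stood far above its group at Gdf3 (75.1%), Slc6a21 (81.1%) and Poglut3 (77.1%). CD11b-positive 3 was the lowest of its group at Dnm1l (1.41%).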

How the results depend on the processing

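The labels say nothing of separate mice, 1 library (CD11b-negative 2) decided the unpaired outcome, and the Y share of the groups does not overlap without number 2. The signs of the 5 mean differences held in every alternative run. Leaving out each library in turn moved them from 1.21 to 2.51 points over all CpGs, -1.82 to -0.567 at CpG-dense starts, 0.491 to 1.22 at CpG-sparse starts, 2.76 to 6.23 outside genes and 1.89 to 4.18 in the rest of genes. The far value of each is the one without CD11b-negative 2 (exact permutation p = 0.0286). Weighted by calls the differences were 4.79 points over all CpGs, 5.80 outside genes, 5.62 in the rest of genes and 1.58 at CpG-sparse starts (adjusted p = 0.179).

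Unpaired, the number of tiles that passed was 39 with the Y share as a term, 11 with the spread of all 12 libraries, 11548 with the replicate number as a block, 17384 without both libraries numbered 2, and 0 to 17775 leaving out each library (17775 without CD11b-negative 2, 0 without any other). For windows it was 1 with the spread of all 12 libraries, 546 with the block, 720 without number 2 and 0 to 176 leaving out each library. edgeR, other call minimums and leaving out the deepest CpGs gave 0 tiles and 0 windows unpaired.

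By same number, 412 tiles passed at 25 points or more, 0 with the Y share, 5470 with at least 5 CpGs, and 4601 (without pair 4) to 18212 (without pair 2) leaving out each pair, with 6853 without pair 1 and 5160 without pair 3. Windows were 9 at 25 points, 0 with the Y share, and 228 (without pair 4) to 903 (without pair 2). Without number 2, 2204 tiles passed at 25 points, 0 with the Y share, 8131 with at least 5 CpGs, and 10641 (without CD11b-negative 4) to 19929 (without CD11b-negative 1). Windows were 85 at 25 points, 0 with the Y share, and 100 (without CD11b-negative 4) to 996 (without CD11b-negative 1). edgeR passed 10133 tiles and 462 windows by same number and 17576 and 839 without number 2.

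Of 1588 alternatives over 104 named windows and tiles, 1313 counted as unchanged, 210 lost the call and 60 gained it. The other 5 changed sign by more than the SD within groups, each at a window that did not pass. Smaller changes of sign at features that did not pass count among the 1313. Dnmt3a, for example, differed by 0.0708 points over 8 libraries and by -0.00454 without number 2. These alternatives leave out the Y share term for the features named from the 3 against 3 comparison, given at the end. Dnmt3b differed by 0.141 points with windows of 2000 bp before and 500 bp after the start. With the Y share as a term Tet1 differed by 0.157, Irf8 by 0.874, Itgb2 by 3.08 and Cebpa by 0.0940 points. For features named from the 3 against 3 comparison the sign was kept with the Y share over 8 libraries at 22 of 26 that were higher and 5 of 27 that were lower, and over 3 against 3 libraries, where Y share and group cannot be told apart, at 11 of 26 and 0 of 27. The cause of these shifts was not tested.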
